A study of Mus musculus with 38 samples.

Results

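Messenger RNA of 10 pancreas genes was followed tumor by tumor in omental high-grade serous ovarian cancer (HGSOC) of the mouse. The genes were 6 digestive enzymes of the acinar cell (Cpa1, Cpb1, Cela2a, Ctrb1, Pnlip and Prss2), 3 regenerating genes (Reg1, Reg2 and Reg3b) and Dmbt1. They are 10 of 55487 genes in the deposited tumor table, matched by Ensembl gene identifier. They were chosen with their values known, because acinar RNA is very high in single tumors and because Reg2 and Dmbt1 were among the largest decreases in treated 60577 tumors at TP2. The levels, and that TP2 difference, are therefore given as descriptions without a test.

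Bulk RNA was sequenced from 34 omental tumors, 17 of the 60577 line grown in FVB mice and 17 of the HGS2 line grown in C57BL/6J mice, and from 4 monocultures of the same lines, 2 of each. The labels name line and strain and list no allele, so strain and tumor line cannot be told apart. Cells were injected into the peritoneal cavity of female mice 8 to 9 weeks old. Treated mice were given carboplatin (20 mg/kg) with paclitaxel (10 mg/kg) in 3 weekly doses from day 21 (60577) or day 49 (HGS2) after injection, and control mice received the vehicle. Omental tumors were taken 1 day (TP1), 7 days (TP2) or 21 days (TP3) after the last dose. There were 3 control and 3 treated 60577 tumors at TP1, 3 and 4 at TP2, and 4 treated at TP3. For HGS2 the numbers were 3 and 3 at TP1, 4 and 3 at TP2, and 4 treated at TP3, and neither model had TP3 controls. A part of each omental tumor was frozen for RNA, and macroscopic invasion of the pancreas was among the autopsy findings that the study recorded, without a value for each RNA sample here. Library totals ran from 17839635 to 49299442 expected counts in tumors and from 31633121 to 42461995 in cell lines. HGS2 TP3 treated 1 is not in the tables of the study, so it was left out of the fitted comparisons, but it is among the levels, ratios and correlations. Levels are given as CPM, reads scaled to a common library size, after TMM scaling of the libraries, so that 3 counts corresponded to between 0.0688 and 0.174 CPM.

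The omentum of the mouse lies against the pancreas. Acinar cells of the exocrine pancreas make digestive enzymes in great amounts, store most of them as inactive precursors in zymogen granules and release them toward the gut. Their program is driven by the PTF1 complex, in which Ptf1a pairs with a common E protein and with Rbpjl, and by Bhlha15 (Mist1), which supports secretion. Reg genes encode small secreted C-type lectins. Reg1 and Reg2 are made by the exocrine pancreas, while Reg3b, the pancreatitis-associated protein, is low in the resting gland and strongly inducible in inflamed pancreas and gut. Dmbt1 encodes a large scavenger receptor glycoprotein of ducts and mucosae that is also known, as muclin, from the zymogen granule membrane.

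Positions are those of GRCm38. Cpa1 (carboxypeptidase A1, ENSMUSG00000054446) and Prss2 (trypsinogen, ENSMUSG00000057163) lie on chromosome 6 at 30639218 to 30645363 and 41521787 to 41525079. Cpb1 (carboxypeptidase B1) lies on chromosome 3 at 20248264 to 20275733, Cela2a (elastase) on chromosome 4 at 141814962 to 141826160, Ctrb1 (chymotrypsinogen) on chromosome 8 at 111686519 to 111691010 and Pnlip (pancreatic lipase) on chromosome 19 at 58652498 to 58681788. Reg1 (chromosome 6 at 78422711 to 78428667), Reg2 (78395623 to 78408106) and Reg3b (78370657 to 78373466) belong to a run of 6 Reg genes on chromosome 6 that spans 98216 bases together with Reg3a, Reg3d and Reg3g. Dmbt1 (ENSMUSG00000047517) lies on chromosome 7 at 131032053 to 131121630. All 10 are protein-coding, and counts were summed over the exons of each gene.

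To show what these genes hold before their start sites, promoters are printed for Prss2, as an acinar enzyme, and for the 3 Reg genes. RefSeq gave the 250 bases before the start site (GRCm38.p6) for 9 of the 10 members. Among those printed, the RefSeq start sites of Reg1, Reg2 and Reg3b lie inside the gene spans given above. The windows of Reg1 and Reg2 therefore lie within these spans, and that of Reg3b overlaps its span. Capitals mark CACCTG and TTTCCC, the E-box and the second box of the sequence that the PTF1 complex binds, and TTCNNNGAA, the core of STAT sites, each searched on both strands. The windows are chr6:41521526-41521775 (Prss2), chr6:78425733-78425982 (Reg1), chr6:78404905-78405154 (Reg2) and chr6:78370635-78370884 (Reg3b), all on the plus strand.
Prss2: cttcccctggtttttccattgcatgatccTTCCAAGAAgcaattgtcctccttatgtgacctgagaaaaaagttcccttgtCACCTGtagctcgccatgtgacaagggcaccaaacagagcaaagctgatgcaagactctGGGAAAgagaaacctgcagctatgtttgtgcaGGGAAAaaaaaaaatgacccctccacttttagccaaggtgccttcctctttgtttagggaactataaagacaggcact
Reg1: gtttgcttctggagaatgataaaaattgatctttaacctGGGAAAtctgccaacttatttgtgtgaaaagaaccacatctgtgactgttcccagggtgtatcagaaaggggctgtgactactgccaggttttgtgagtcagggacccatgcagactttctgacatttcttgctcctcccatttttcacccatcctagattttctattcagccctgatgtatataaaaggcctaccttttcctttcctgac
Reg2: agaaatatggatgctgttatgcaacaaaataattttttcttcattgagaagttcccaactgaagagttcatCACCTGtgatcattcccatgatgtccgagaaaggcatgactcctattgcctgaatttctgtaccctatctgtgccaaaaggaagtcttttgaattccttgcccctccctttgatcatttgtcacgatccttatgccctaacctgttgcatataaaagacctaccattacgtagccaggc
Reg3b: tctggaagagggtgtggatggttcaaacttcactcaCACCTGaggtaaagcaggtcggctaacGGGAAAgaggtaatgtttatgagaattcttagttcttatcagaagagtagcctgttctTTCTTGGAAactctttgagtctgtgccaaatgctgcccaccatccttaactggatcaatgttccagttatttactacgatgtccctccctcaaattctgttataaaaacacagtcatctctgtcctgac
CACCTG stood in 5 of the 9 member promoters and in 17.2% of 32851 promoters of that length, and TTTCCC in 6 of 9 against 21.9%. TTCNNNGAA stood in 2 of 9 (Prss2 and Reg3b) against 7.02%. Among the 4 promoters shown, Reg1 held only TTTCCC, Reg2 only CACCTG, and Prss2 and Reg3b held all 3. A match describes these letters only.

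Acinar enzyme RNA was nearly all in 3 HGS2 tumors, 2 of them controls and 1 treated. Taken over an acinar list of 41 genes, which includes the 6 enzymes, acinar RNA made up 16.8% of all counts in HGS2 TP2 control 2 (95% Wilson interval 16.7 to 16.8, counting error only). The share was 10.5% in TP3 treated 2 and 9.70% in TP1 control 3. It was 0.338% or lower in the other 31 tumors, so the 3 stood far above their own groups at each time point. These 3 tumors held between 94.2% and 97.6% of the counts of each of the 10 genes. In bulk RNA, more acinar cells in a piece and more RNA per acinar cell cannot be told apart.

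Below these 3 came a middle range in both models. The share was 0.338% in HGS2 TP1 treated 1, 0.302% in 60577 TP2 control 1, 0.289% in HGS2 TP2 control 4 and 0.161% in HGS2 TP2 treated 2. In 60577 it was 0.0495% in TP2 control 3 and 0.0383%, 0.0197%, 0.0890% and 0.0159% in the 4 TP3 treated tumors. More than 1000 counts of the 6 enzymes were found in all 4 TP3 tumors of 60577 and in 2 of the 3 TP2 controls, and in none of the other 11 tumors of the model. Counted as the sum of the 6 enzymes, the TP1 controls of 60577 held 1, 7 and 7 counts and the TP1 treated tumors 345, 295 and 37. At TP2 the sums were 37362, 35 and 4646 in controls and 31, 347, 36 and 22 in treated tumors, and at TP3 they were 3619, 1702, 10999 and 1507. The groups of 60577 did not overlap at TP1, overlapped at TP2, and at TP3 lay between the lowest and the highest TP2 control.

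In HGS2 single tumors stood far above the rest of their group. The sums were 23, 2038 and 1226681 in TP1 controls and 48734, 767 and 1289 in TP1 treated tumors. At TP2 they were 59, 2938132, 65 and 34628 in controls and 44, 18177 and 108 in treated tumors. The TP3 treated tumors held 1015, 1436751, 1439 and 6108. All 5 HGS2 groups overlapped. The highest level of every member was in HGS2 TP2 control 2, where Ctrb1 reached 33080 CPM, Cela2a 26556, Pnlip 20218, Cpa1 12503, Prss2 10873 and Cpb1 10008. Per kilobase of exon, the levels there ran from 3048 RPKM (Cpb1) to 37677 RPKM (Ctrb1) among the enzymes.

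The cell lines lacked this program. Over the 4 monocultures, Cpa1, Prss2, Reg1, Reg2 and Reg3b were at 0 counts. Ctrb1 had 2 counts, Cpb1 3, Cela2a 4 and Pnlip 11 in all. Dmbt1 was the exception, with 49 counts and 0.0942 to 0.948 CPM on the library total, without TMM scaling. This range overlaps the TMM-scaled one it had in tumors with few acinar enzyme counts.

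**Figure D1:**
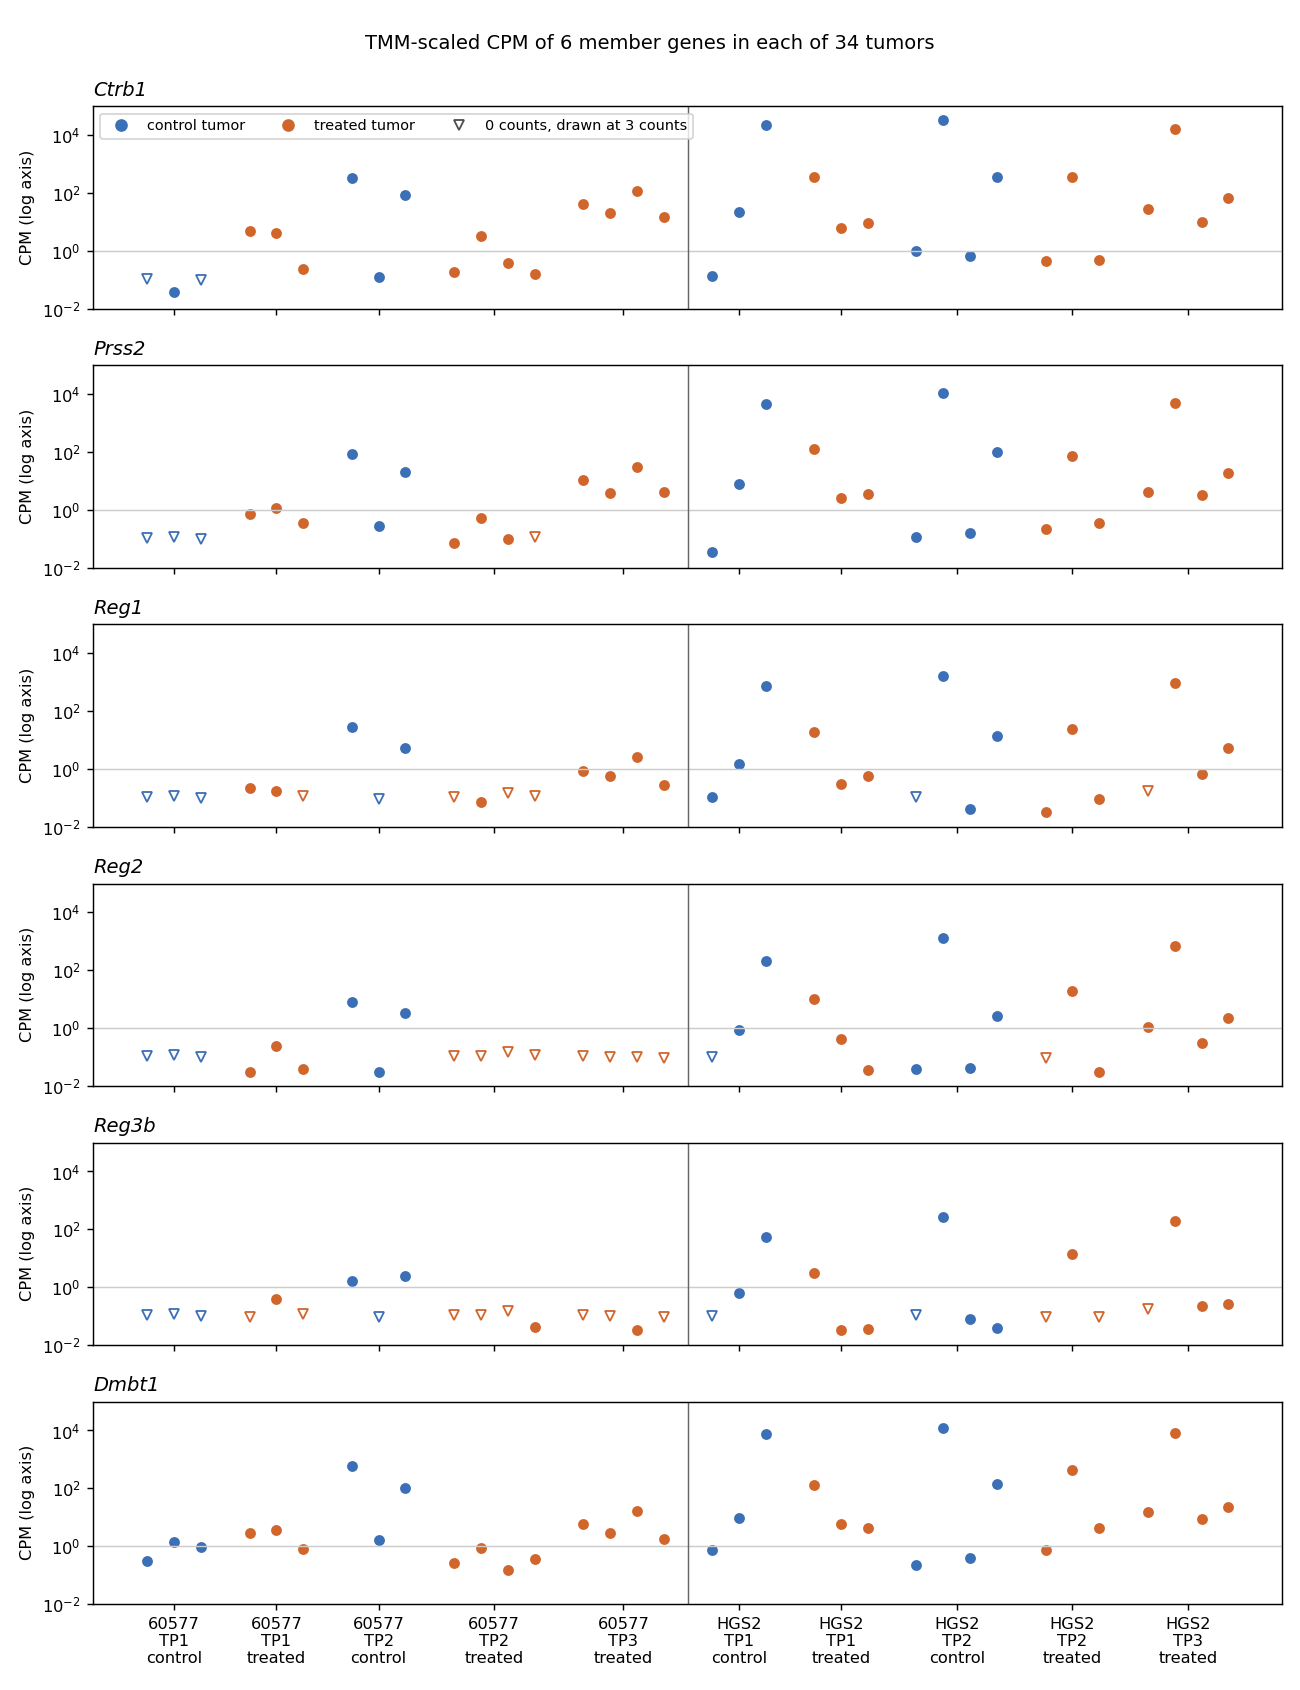
Level of Ctrb1, Prss2, Reg1, Reg2, Reg3b and Dmbt1 in each of the 34 tumors (1 point per tumor, by group along the x axis), in TMM-scaled CPM on a log axis, with blue for control and orange for treated tumors and open triangles for 0 counts, drawn at the level of 3 counts. The same 3 HGS2 tumors were the highest for each of these genes, and Reg2 stood at 0 in all 60577 TP2 treated and TP3 treated tumors.

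Next, it was asked whether the enzymes kept one makeup wherever they appeared. Over the 17 tumors with more than 1000 enzyme counts, each enzyme's part of the 6-enzyme sum stayed within a span of 1.84-fold (Prss2, 6.82% to 12.6%) to 3.13-fold (Cela2a, 9.41% to 29.4%). Ctrb1 was between 20.9% and 49.3%, Pnlip between 8.20% and 23.7%, Cpa1 between 4.83% and 14.1%, and Cpb1 between 6.11% and 11.3%. The sum itself varied from 1015 to 2938132 counts over the same tumors. The makeup thus varied far less than the amount, and the sum was used as the measure of acinar RNA in a tumor.

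**Figure D2:**
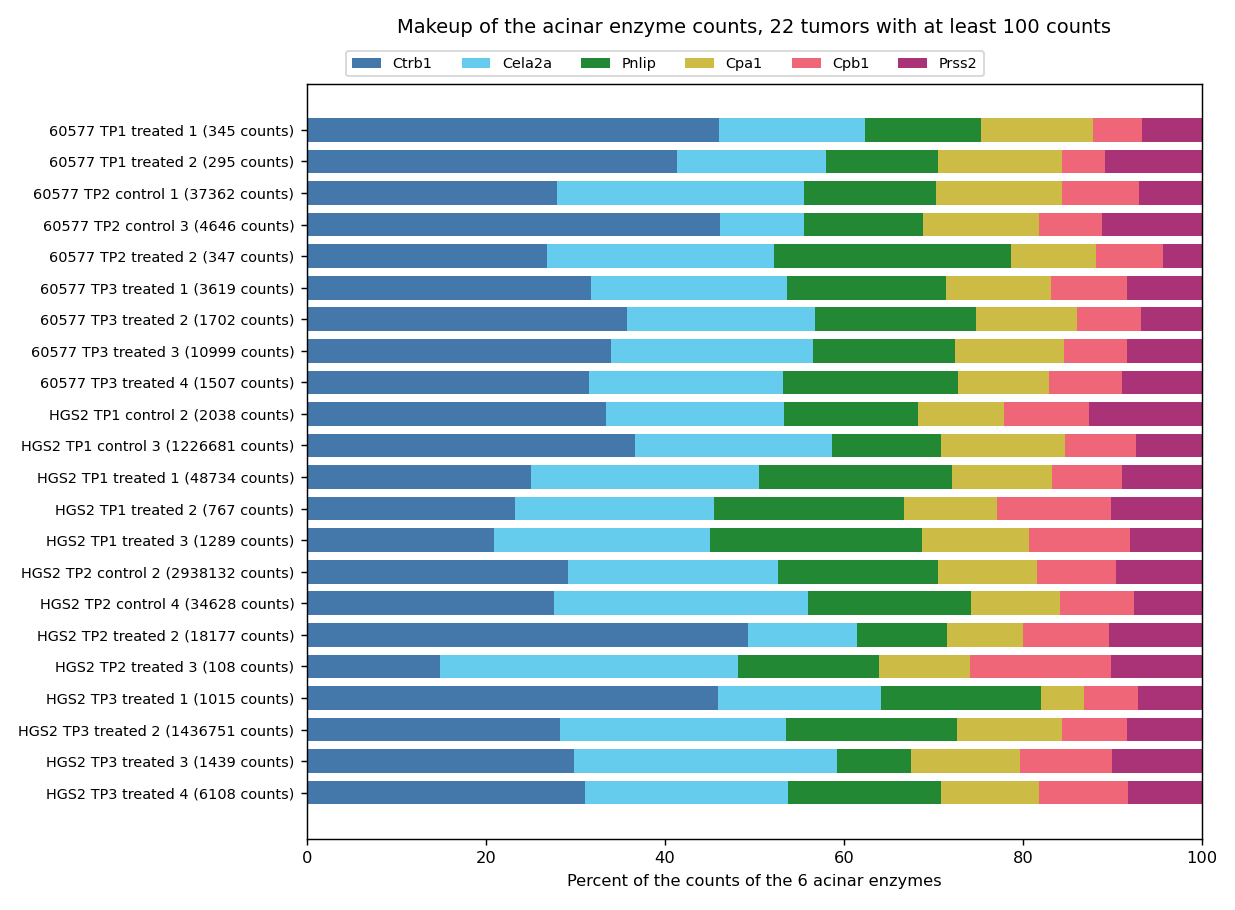
Part of each acinar enzyme in the 6-enzyme sum (x axis, percent) in the 22 tumors with at least 100 enzyme counts (1 stacked bar per tumor, with its enzyme counts). Ctrb1, Cela2a and Pnlip made up most of the sum in the tumors of both models.

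Reg1 followed the enzymes most closely of the 3 Reg genes. In 60577 it was at 0 in the 3 TP1 controls, at 0.219, 0.177 and 0 CPM in TP1 treated tumors, at 27.6, 0 and 5.51 CPM in TP2 controls and at 0, 0.0728, 0 and 0 CPM in TP2 treated tumors. At TP3 all 4 treated 60577 tumors had it, at 0.827, 0.564, 2.55 and 0.271 CPM. In HGS2 it stood at 736, 1587 and 980.4 CPM in the 3 tumors with the most acinar RNA and at 24.4 CPM or lower elsewhere. For each 100 counts of the 6 enzymes, Reg1 had 0.636, 0.999, 0.718 and 0.597 counts in the 60577 TP3 tumors against 2.26 and 2.88 in the 2 TP2 controls with acinar RNA. It had 1.20, 1.40 and 1.66 in the 3 high HGS2 tumors. Over the 17 tumors with more than 1000 enzyme counts the ratio spanned 5.67-fold, leaving out HGS2 TP3 treated 1, which had no Reg1 count beside 1015 enzyme counts (3 counts would be 0.296 per 100).

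Reg2 did not. In 60577 it was at 0 in TP1 controls, at 0.0313, 0.247 and 0.0387 CPM in TP1 treated tumors and at 8.21, 0.0311 and 3.21 CPM in TP2 controls. It had no count in any of the 4 TP2 treated or the 4 TP3 treated tumors. The TP3 zeros stood beside 3619, 1702, 10999 and 1507 enzyme counts, where 3 counts of Reg2 would have been 0.0829, 0.176, 0.0273 and 0.199 per 100. The 2 TP2 controls with acinar RNA had 0.672 (95% exact interval 0.591 to 0.761) and 1.68 (1.32 to 2.10) per 100. The upper exact bounds of the 4 TP3 tumors (0.0335 to 0.245) lay below the lower bounds of both controls. These controls are among the tumors by which Reg2 was chosen, so this is a description.

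In HGS2, Reg2 had 0, 0.887 and 205 CPM in TP1 controls and 10.4, 0.402 and 0.0349 CPM in TP1 treated tumors. At TP2 it had 0.0372, 1343, 0.0402 and 2.57 CPM in controls and 0, 19.3 and 0.0309 CPM in treated tumors. At TP3 it had 1.05, 699, 0.298 and 2.15 CPM. The high tumors for the enzymes were again the high tumors for Reg2, and the groups overlapped. Per 100 enzyme counts it was 0.335, 1.19 and 1.18 in the 3 tumors richest in acinar RNA and 2.68 in TP2 treated 2. The lowest ratio, 0.0776, rested on a single count in TP1 treated 3, and TP2 control 4 had 0.196 with 68 counts. Chemotherapy groups of HGS2 did not separate by this ratio: TP3 treated tumors had 1.77, 1.18, 0.903 and 0.9496.

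Reg3b was the rarest member and the most uneven. It was at 0 in 17 of 34 tumors, at or above 1 CPM in 7, and below the filter on low counts. Its highest levels were 270.3, 197 and 54.4 CPM in the 3 high HGS2 tumors, then 13.9 CPM in HGS2 TP2 treated 2, 2.98 CPM in HGS2 TP1 treated 1, and 2.38 and 1.60 CPM in 60577 TP2 control 3 and control 1. Over the tumors with more than 1000 enzyme counts and at least 1 count of Reg3b, it ran per 100 enzyme counts from 0.00289 (a single count in HGS2 TP2 control 4, beside 34628 enzyme counts) to 1.93 in HGS2 TP2 treated 2, a span of 667-fold. HGS2 TP2 treated 2 had the lower enzyme sum of these, 18177 counts, and yet 350 counts of Reg3b. In 60577 it was 0.131 and 1.25 in the 2 TP2 controls, and the 4 TP3 tumors held 1 count in all.

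The other Reg genes of the locus were highest in HGS2 TP2 control 2 and next in TP3 treated 2. Reg3a, Reg3d and Reg3g, further members of the C-type lectin group, reached 130.2, 67.8 and 31.6 CPM in HGS2 TP2 control 2 and were at 0 in 18, 22 and 23 of 34 tumors. Reg3a was at 2.54 per 100 enzyme counts in HGS2 TP2 treated 2 and between 0.0133 and 0.208 in the 3 tumors richest in acinar RNA. Reg4, which lies apart on chromosome 3, stayed at or below 0.524 CPM. Extl3, reported as a receptor for Reg proteins, was present in every tumor at 95.1 to 249 CPM.

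Dmbt1 had counts in all 34 tumors. In the 12 tumors with fewer than 100 enzyme counts it lay between 0.147 and 1.61 CPM (median 0.580), whereas Reg1, Reg2 and Reg3b did not exceed 0.103, 0.0402 and 0.0805 CPM there. High levels of Dmbt1 and the Reg members were thus found in none of these 12 tumors. In 60577 Dmbt1 had 0.312, 1.34 and 0.912 CPM in TP1 controls and 2.84, 3.57 and 0.813 CPM in TP1 treated tumors. At TP2 it had 572, 1.61 and 98.9 CPM in controls and 0.251, 0.874, 0.147 and 0.360 CPM in treated tumors, and at TP3 5.97, 2.75, 16.4 and 1.78 CPM. Every TP2 treated tumor lay below every TP2 control, yet the lowest control, which had only 35 enzyme counts, was at 1.61 CPM.

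In HGS2 Dmbt1 had 0.758, 9.64 and 7553 CPM in TP1 controls and 135, 5.96 and 4.19 CPM in TP1 treated tumors. At TP2 it had 0.223, 12666, 0.402 and 138 CPM in controls and 0.758, 423 and 4.14 CPM in treated tumors. At TP3 it had 15.7, 8243, 8.33 and 22.2 CPM. All groups overlapped. By group median, Dmbt1 in 60577 was ordered TP2 control (98.9 CPM), TP3 treated (4.36), TP1 treated (2.84), TP1 control (0.912) and TP2 treated (0.305), and in HGS2 TP2 control (69.3), TP3 treated (18.9), TP1 control (9.64), TP1 treated (5.96) and TP2 treated (4.14). Every pair of neighbors in both orders overlapped.

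Set against the enzymes, Dmbt1 varied widely among tumors with like amounts of acinar RNA. It was 46.8 (95% exact interval 45.9 to 47.6) and 51.8 (49.3 to 54.4) per 100 enzyme counts in 60577 TP2 control 1 and control 3, and 58.6 (57.2 to 60.01) in HGS2 TP2 treated 2. In the 4 TP3 treated tumors of 60577 it was 4.59, 4.88, 4.61 and 3.92, with intervals that overlapped one another and reached no higher than 6.08. The 3 HGS2 tumors with the most acinar RNA had 12.4, 11.2 and 13.9, and the others of HGS2 above 1000 enzyme counts, leaving out TP2 treated 2, between 9.31 and 26.6. TP2 control 3 and TP3 treated 1 of 60577, with 4646 and 3619 enzyme counts, held 2406 and 166 counts of Dmbt1. Over the 17 tumors the span was 15.0-fold. Acinar genes outside the 6-enzyme sum spanned more, such as Ctrc at 88.8-fold and Try4 at 282-fold, so a span of this size was not particular to Dmbt1. Taken over the whole acinar list instead, the same 3 tumors were highest, with 18.5, 21.8 and 25.4 per 100, and the 60577 TP3 tumors lowest, with 1.28 to 2.06, while the order within the TP3 tumors changed.

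At lower sums the ratios were less certain. The TP1 treated 60577 tumors 1 and 2 had Dmbt1 at 26.4 (20.7 to 33.3) and 34.2 (27.0 to 43.1) per 100, and TP2 treated 2 had 6.92 (4.37 to 10.5). HGS2 TP2 treated 3 had 134 Dmbt1 counts beside 108 enzyme counts, which is 124 per 100 and the highest ratio among the 22 tumors with at least 100 enzyme counts. In that tumor Dmbt1 was at 4.14 CPM, above all 12 tumors with fewer enzyme counts. Intervals cover counting error only, since reads carried no molecular identifiers.

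**Figure D3:**
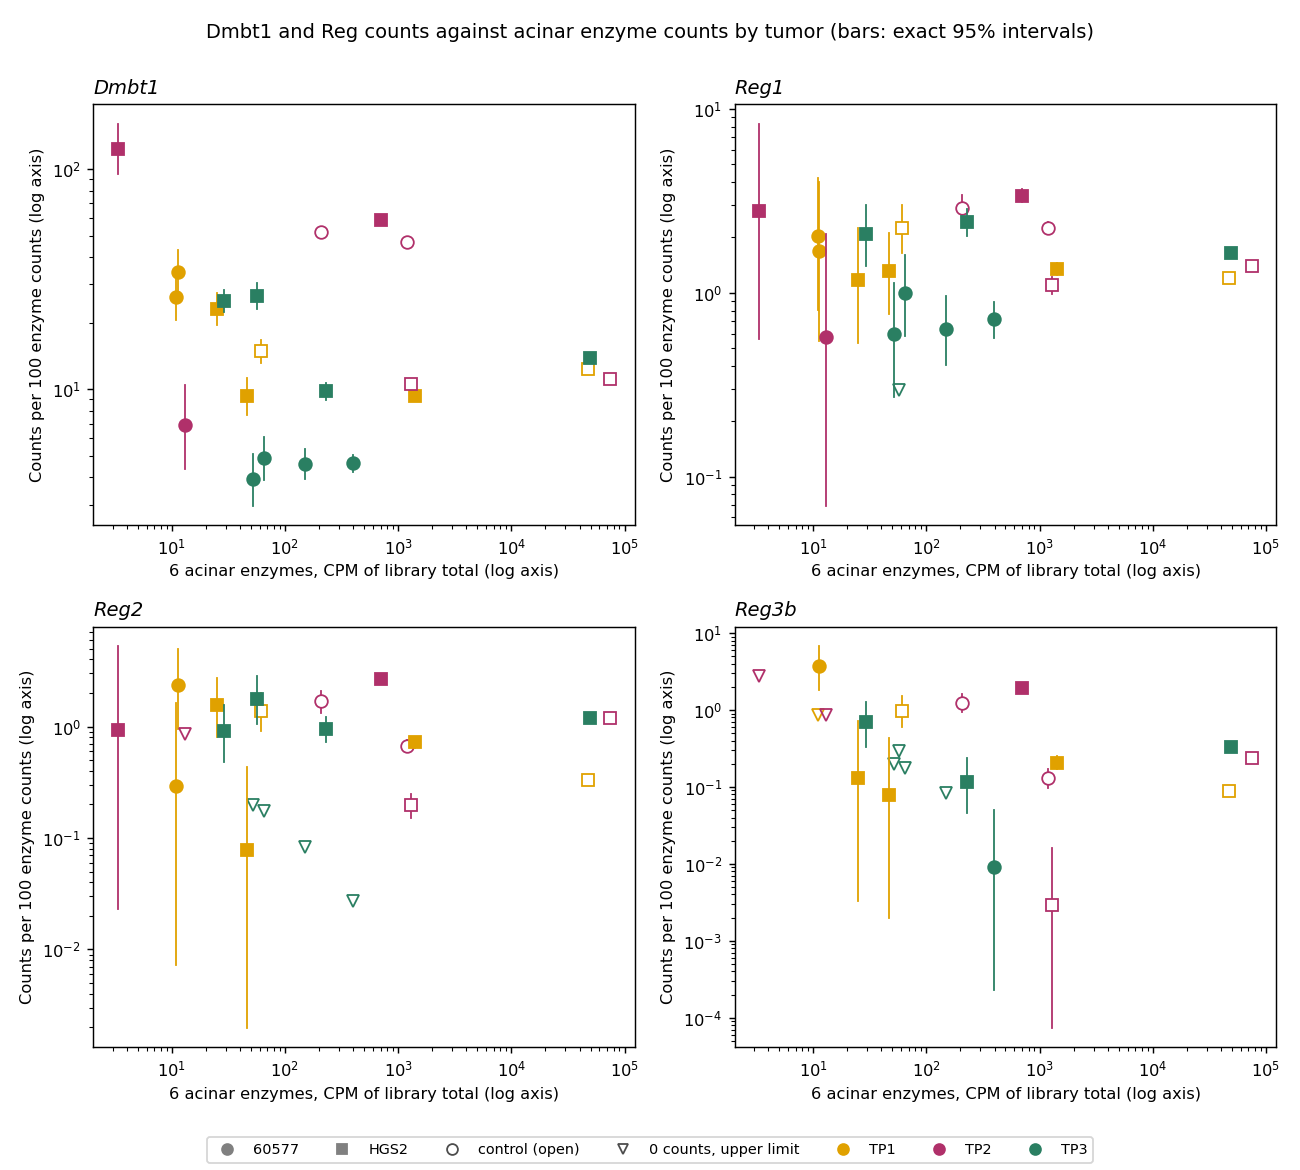
Counts of Dmbt1, Reg1, Reg2 and Reg3b per 100 counts of the 6 acinar enzymes (y axis, log scale) in tumors with at least 100 enzyme counts, against the CPM of the 6 enzymes on the library total (x axis, log scale), with bars for 95% exact intervals, circles for 60577, squares for HGS2, open symbols for controls, colors for time points and triangles for the upper limit of 0 counts. Dmbt1 of the 4 TP3 treated 60577 tumors lay between 3.92 and 4.88, and that of the 2 TP2 controls at 46.8 and 51.8.

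Transcription factors of the acinar cell were set against the enzymes in the same way. Rbpjl, the pancreas-specific partner in the PTF1 complex, was at 7.55 per 100 enzyme counts in 60577 TP2 control 1 and 8.71 in HGS2 TP2 treated 2, 2 of the 3 tumors with the highest Dmbt1 ratio among those with more than 1000 enzyme counts. It was at 1.46 in 60577 TP2 control 3 and at 3.45 in HGS2 TP3 treated 1. The 3 HGS2 tumors with the most acinar RNA had 0.536, 0.457 and 0.547. Ptf1a was at 0.313 in 60577 TP2 control 1 and 0.429 in HGS2 TP2 treated 2, and at 0.0349, 0.0278 and 0.0345 in the 3 tumors with the most acinar RNA. Both factors were thus high for the enzymes in the former 2 tumors, whereas Ptf1a had 1 count in 60577 TP2 control 3. The 4 TP3 tumors of 60577 had Rbpjl at 0.221, 0.411, 0.909 and 0.332. For Bhlha15 and Nr5a2, 2 further factors of acinar cells, no ratio is read, since they were also present where the enzymes were nearly absent. In the 60577 TP1 controls, with 1, 7 and 7 enzyme counts, Bhlha15 had 30, 43 and 34 counts, and Nr5a2 stood at 2.98, 4.60 and 5.90 CPM against 2.98 to 6.11 CPM in the TP3 tumors.

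Differences between groups were then tested with edgeR's quasi-likelihood test over all genes past the filter, and a gene was called where its p-value, adjusted by Benjamini and Hochberg, was under 0.05 and its log2 fold change was beyond 1 in size. The filter kept 9 members (Reg3b was below it). For the enzymes, chosen by single tumors very high in acinar RNA, the counts below are descriptions.

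At TP1, 0 of the 9 members were called by edgeR between treated and control 60577 tumors, where 15.6% of the 16232 genes tested were called. Ctrb1 alone had an unadjusted p-value below 0.05 (log2 fold change 7.64, SE 3.25, adjusted p = 0.0836), limma-voom called 0 and the DESeq2 Wald test called 4. Dmbt1 had a log2 fold change of 1.53 (SE 1.455, adjusted p = 0.453 from edgeR). Reg2 had one of 4.63 (SE 3.75), on 1, 7 and 1 counts against 0, so nothing is read from its test.

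Between TP1 and TP3 the treated 60577 tumors were higher in 5 of the 9 members, all of them enzymes, where 11.0% of genes were called and 5.88% were called higher. These were Cpb1 (log2 fold change 4.78, SE 1.54, adjusted p = 0.0324), Pnlip (4.66, SE 1.47, adjusted p = 0.0296), Cela2a (4.59, SE 1.55, adjusted p = 0.0405), Cpa1 (4.16, SE 1.45, adjusted p = 0.0458) and Prss2 (4.04, SE 1.37, adjusted p = 0.0441), by edgeR's test. Ctrb1 was at 3.94 (adjusted p = 0.0605 in the same test). Dmbt1 and Reg1 did not pass, at 1.47 (SE 1.19, adjusted p = 0.384) and 2.91 (SE 1.56, adjusted p = 0.188), both from edgeR. Reg2 was at -4.63 (SE 3.31), on 1, 7 and 1 counts at TP1 against 0 at TP3. It was at 1 CPM or more in 2 tumors of 60577 and 8 of HGS2, so nothing is read from its test here. The enzyme calls were fragile: they came to 0 without TP1 treated replicate 1, 2 or 3 or without TP3 treated replicate 3, to 1 without TP3 treated replicate 1, to 0 in limma-voom and to 2 with the replicate number as a block. Adipocyte genes rose in this comparison too, but not with the members in most others. The median log2 fold changes of adipocyte genes and members in 60577 were 5.39 and 4.63 at TP1, and 5.52 and -7.08 at TP2. In HGS2 they were 3.22 and -5.19 at TP1, 0.311 and -6.79 at TP2, and -1.82 and 5.36 at TP3 against TP1. These medians are descriptions. From TP1 to TP3 in treated 60577 tumors, 4 of 8 adipocyte markers rose (Retn, Adipoq, Lep and Fabp4). The summed level of the list was 2352 to 3424 CPM in the TP3 tumors against 22.8 to 1141 CPM in TP1 treated tumors. What part the makeup of the piece had in the enzyme difference was not tested.

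The comparisons within HGS2 hold the 3 tumors by whose acinar RNA the members were chosen, so they are described without a test. For treatment at TP1, treatment at TP2 and TP3 against TP1 within treated tumors, 0 of the 9 members were past the thresholds in edgeR, limma-voom or the DESeq2 Wald test, where 0% of the 16239 genes were in edgeR, and nothing is read from that count. At an unadjusted p-value below 0.05 in edgeR there were 413, 1233 and 1104 genes and 0 members. Standard errors of the members lay between 3.65 and 4.58 on the log2 scale. The direction rested on single tumors: without TP1 control 3 the TP1 values of Reg1, Reg2 and Dmbt1 were 3.09, 2.99 and 3.20, against -5.19, -4.24 and -5.72 with it.

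The controls of HGS2 include 2 of the tumors by whose acinar RNA the members were chosen, so their difference from 60577 controls is described without a test. The fitted log2 difference, HGS2 minus 60577, was 10.20 for Reg2 (SE 3.52) and 7.69 for Dmbt1 (SE 2.42). All 9 members were past the thresholds in edgeR, where 22.0% of 16241 genes were and 13.2% were higher, and nothing is read from that count. The TP1 controls of 60577 had almost no count of most members, so the fitted sizes depend on the small count that the fit adds. Without the 3 HGS2 tumors richest in acinar RNA the number was 0, and it was 0 in limma-voom and in the DESeq2 Wald test.

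The 60577 TP2 difference, by which Reg2 and Dmbt1 were chosen, is described only. Fitted log2 differences, treated minus control, were -9.04 for Dmbt1, -9.75 for Reg2 and -8.84 for Reg1, and from -6.02 (Pnlip) to -7.56 (Prss2) for the enzymes. All 9 were past the thresholds, where 24.5% of genes were and 9.62% were lower, and nothing is read from that count. Between TP3 treated tumors and the same TP2 controls, where 24.4% of genes were past the thresholds, the enzymes differed by -1.48 to -1.91, Reg1 by -3.37, Dmbt1 by -5.05 and Reg2 by -9.75. The 2 comparisons share their controls. Reg2 had no count in the treated tumors of either, so the size of its values depends on the small count that the fit adds. TP2 control 1 and control 3 carried these differences, and without them a single control was left, with 0 counts of Reg1 and 1.61 CPM of Dmbt1. Other gene lists moved in the same TP2 comparison. Of the adipocyte list 8 of 8 genes were higher (median log2 fold change 5.52). Lower were 7 of 11 tumor epithelium genes (median -1.88), 7 of 9 duct genes (median -1.71) and 9 of 9 inducible defense genes (median -2.85). The duct list does not stand for duct tissue here: Krt19 and Krt7 are also in the epithelium list. Cftr stood at 13.2, 10.1 and 15.4 CPM in the 60577 TP1 controls, which had 1, 7 and 7 enzyme counts. The part of these lists in the differences of Dmbt1 and the Reg genes was not tested. For HGS2 at TP3 against TP2 controls, 0% of genes and 0 members were past the thresholds.

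**Figure D4:**
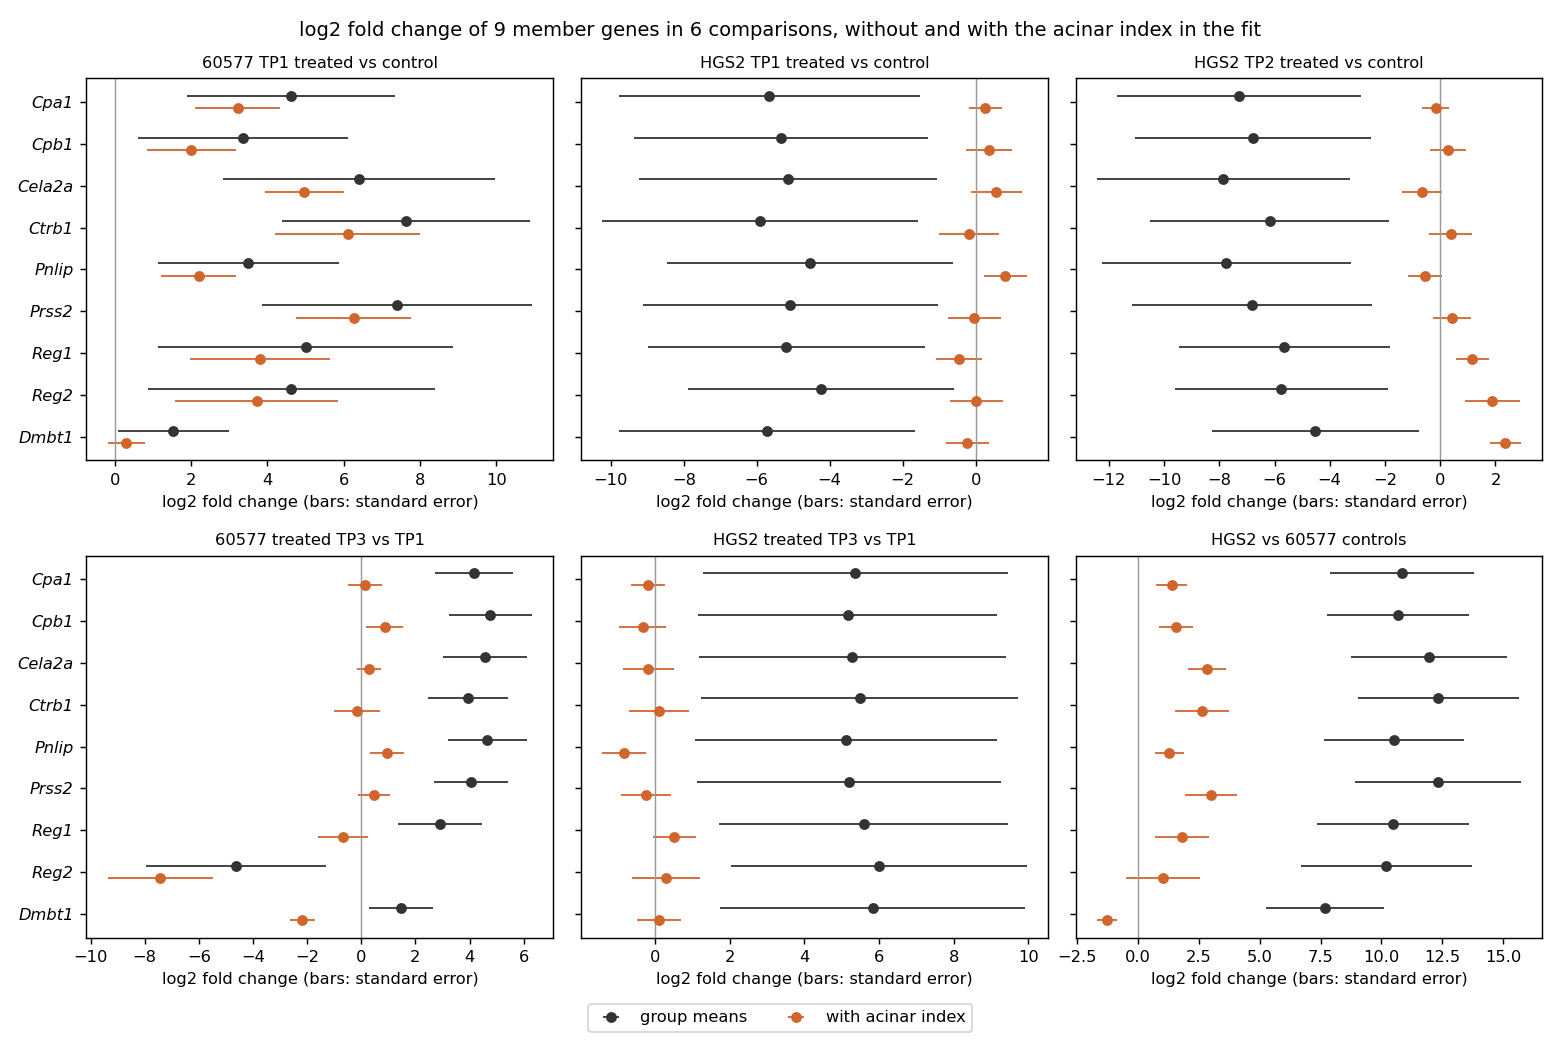
Fitted log2 fold change of each member (points, with 1 SE to either side) in the comparisons, without and with the acinar index of each tumor in the fit. With the index, the enzymes in the 3 comparisons within HGS2 moved to within 1 log2 unit of 0, and Dmbt1 of 60577 treated tumors at TP3 against TP1 changed from 1.47 to -2.17.

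To separate Reg genes and Dmbt1 from the amount of acinar tissue, each comparison was refitted with an acinar index, the mean log2 CPM of the acinar list without the 10 members, as a covariate. Between TP1 and TP3 in treated 60577 tumors, the fitted log2 difference of Dmbt1 was then -2.17 (SE 0.4705), and it was the only member past the thresholds, where 6.77% of genes were. Reg2, without a count at TP3, was at -7.43 (SE 1.95) and Reg1 at -0.68, while the enzymes lay between -0.17 and 0.96. Of the variation of the index within 60577 groups, 81.1% lay in the 3 TP2 controls, tumors by which Dmbt1 and Reg2 were chosen, so values with the index are descriptions and not tests. Without TP2 controls 1 and 3 the Dmbt1 value was -2.24, with 0 members past the thresholds.

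At TP1 in 60577 the same fit put 4 members past the thresholds, all enzymes (Cpa1, Cela2a, Ctrb1 and Prss2), where 15.2% of genes were, and gave Dmbt1 at 0.30 (SE 0.487). In HGS2 it left every enzyme within 1 log2 unit of 0 in each of the 3 comparisons. Dmbt1 at TP2 in HGS2, which was not past the thresholds, was at 2.36 (SE 0.572), treated minus control. This value was 2.49 without the 3 tumors richest in acinar RNA. Between the controls of the models Cela2a was at 2.82, Prss2 at 2.99 and Dmbt1 at -1.29 (SE 0.409), the 3 members past the thresholds, where 22.5% of genes were. The Dmbt1 value was -1.24 without the 3 HGS2 tumors and -0.82 without the 2 TP2 controls of 60577.

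The wider pancreas was then followed through lists of marker genes. Of the 41 acinar genes, 29 passed the filter. Between TP1 and TP3 in treated 60577 tumors, 15 of the 29 were called higher and 0 lower, with a median log2 fold change of 4.16 against 0.00495 for all genes. They included Ctrc, Clps, Cela3b, Pnliprp2, Sycn and several amylase genes. Between TP1 and TP3, 5.88% of all genes were called higher. The 5 member enzymes called are among the 15, whose calls came to 0 without any 1 of the TP1 treated tumors, without TP3 treated 3 and in limma-voom, and the list was not recounted under these. Nothing is read from the list between HGS2 and 60577 controls, since the members were chosen by tumors in that comparison. By edgeR 0 of the 29 were called at TP1 in 60577, where 15.6% of all genes were called. In the comparisons within HGS2 0 were called, where 0% of all genes were, and nothing is read from that count. Trypsinogen genes such as Try4 and Try5 and the amylase genes share reads with near-identical copies, so their single values are uncertain.

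Islet RNA was high in 4 HGS2 tumors. Insulin, glucagon and related genes (14 in the list, Ins2, Ins1 and Gcg the most abundant) summed to 703 CPM in HGS2 TP1 control 3, 271 CPM in TP3 treated 2, 182 CPM in TP2 treated 2 and 124 CPM in TP2 control 2. They were at or below 20.0 CPM in the other 30 tumors. HGS2 TP2 treated 2 had 0.161% acinar RNA, so its islet RNA was high for its acinar RNA. So was Gcg in HGS2 TP3 treated 3, with 844 counts beside 1439 enzyme counts and 0.00944% acinar RNA. Ins1 and Ins2 had 0 and 4 counts in that tumor. In 60577 the islet sum stayed at or below 1.94 CPM in all 17 tumors, including TP2 control 1. Of the islet list 1 gene passed the filter, Pcsk1, a prohormone convertase that other cells also make, and it rose at TP1 in 60577 (log2 fold change 1.69, adjusted p = 0.0426 from edgeR).

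Intestine markers were low. Cdx2, the intestinal master regulator, was at 0 in all 34 tumors, and the 16 intestine genes (Lyz1, Lgals4 and Apoa4 the most abundant) summed to at most 182 CPM, in HGS2 TP1 control 3. In 60577 TP2 control 1 and control 3, with their high Dmbt1, the intestine sum was 16.5 and 12.3 CPM against 27.0 CPM in control 2. Of 8 stomach genes 1 passed the filter, Pgc, and the next most abundant, Gif, averaged 0.577 CPM. Pgc stood at 111 to 198 CPM in the 60577 controls, highest in TP2 control 3, and at 2.29 CPM or lower in HGS2. In 60577 Pgc fell at TP1 (log2 fold change -2.51, adjusted p = 0.000427 from edgeR) and between TP1 and TP3. Which cells made it was not tested. Liver genes (Cyp2e1, Alb and Apob the most abundant) summed to at most 58.8 CPM. Of the 11 duct genes, led by Spp1, Bicc1 and Krt19, 9 were tested. At TP1 in 60577, 2 rose (Car2 and Spp1) and 3 fell (Krt19, Krt7 and Cftr), genes that are not specific to ducts, where 15.6% of all genes were called. From TP1 to TP3, where 11.0% were called, Car2 and Spp1 fell.

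Inflammatory signals known to induce Reg genes and Dmbt1 in epithelia were measured beside them. Of 19 inducible epithelial defense genes, 9 were tested, and at TP1 in 60577 5 of these rose, Lcn2 (log2 fold change 1.39), Cxcl1 (1.26), Saa3 (2.65), S100a8 (2.50) and S100a9 (2.71), with adjusted p-values of 0.00405 to 0.0416 from edgeR, where 15.6% of all genes were called. From TP1 to TP3, where 11.0% were called, 6 of the 9 fell, Lcn2 by 4.74 and S100a8 by 4.12 on the log2 scale. Of 21 genes of the IL-6, IL-22 and STAT3 axis, 18 were tested. At TP1 4 rose (Il6, Osm, Il6ra and Il17ra) and from TP1 to TP3 4 fell (Il6, Osmr, Socs3 and Cebpb), to be read against the same shares of all genes. Il22 and Il17a themselves were near absent, at no more than 0.119 and 0.165 CPM. Dmbt1 and Reg1 did not pass the test in either of these comparisons. In the TP2 comparison of 60577, by which Dmbt1 and Reg2 were chosen, 9 of the 9 defense genes were lower. There 24.5% of all genes were past the thresholds and 9.62% were lower. At TP3 against the same TP2 controls, where 24.4% of all genes were past the thresholds, 6 of the 9 were lower. Whether these genes bear on Dmbt1 was not tested.

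Tumor epithelium and mesothelium fell at TP1 in 60577, with 8 of 11 (among them Krt8, Epcam, Msln and Muc16) and 6 of 9 (among them Upk3b and Msln) called lower, and 7 of 8 adipocyte genes rose, where 15.6% of all genes were called. From TP1 to TP3, where 11.0% were called, 4 of 11 epithelial genes fell and 0 of 9 mesothelial genes were called. None of these lists had a call in the HGS2 comparisons of treatment and time, where 0% of all genes were called. Nothing is read from that. Within the acinar transcription factors, Gata4, which mesothelium also expresses, was lower at TP1 (log2 fold change -1.21, adjusted p = 0.000116 from edgeR).

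Genes whose level followed the members were named by Pearson's r of log2 CPM over the 17 tumors of a model, as a description. In 60577, Reg2 was most like Dmbt1 (r = 0.848), Cbs (0.845), Rbpjl (0.792), Pdia2 (0.771) and Reg1 (0.770), while Dmbt1 was most like Reg1 (0.955), Pnliprp1, Gp2, Cela3b and Pnliprp2 (0.911). The acinar index had Reg1 (0.975), the trypsinogen-like 2210010C04Rik, Rbpjl, Dmbt1 (0.899) and Pdia2 as its closest genes outside the list. By Spearman's rho its first 5 were 2210010C04Rik (0.942), Reg1 (0.932), Cwc22, Anapc13 and Galm, and Dmbt1 ranked 14 (0.757). Reg2 was at 0 in 11 of these 17 tumors, and by Spearman's rho it was closest to Mrpl2 and Snf8 (both 0.817) and to no pancreas gene among the first 5. In HGS2, the genes most like Reg2 included Gp2 (0.977), Pnliprp1, Try5 and Dmbt1 (0.974), and Dmbt1 most like Gp2 (0.990), a glycoprotein of the zymogen granule membrane. There the acinar index was closest to Reg1 (0.9853), 2210010C04Rik, Pdia2, Dmbt1 (0.975) and Reg2 (0.970). All 17 points share the scaling of their library.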

How the data were processed

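Total RNA of 34 omental tumors and 4 monocultures was depleted of ribosomal RNA and sequenced strand-specifically in read pairs. The authors deposited expected counts per gene from RSEM, after trimming with Trim Galore 0.6.5 and alignment with STAR 2.7.0f to GRCm38. Expected counts were rounded here for the tests, and CPM were scaled by TMM (factors 0.663 to 1.15). Genes at 1 CPM or more in at least 25% of 33 tumors were kept (16241 genes). Group means were compared by the quasi-likelihood test of edgeR 4.0.16 in R 4.3.3, adjusted over all genes kept, and calls needed an adjusted p under 0.05 with a log2 fold change beyond 1 in size. Alternatives were DESeq2 1.42.0, limma 3.58.1 (voom), other filters and scalings, a replicate block, an acinar index as a covariate and leaving out tumors. The step was tested on simulated data. Ratios carry exact intervals and shares Wilson intervals at 95%. No label says that replicate numbers pair tumors, and the main fits used no pairing. Correlations of deviations between HGS2 TP2 treated and control tumors of the same number were 0.138, 0.295 and 0.296. In no other comparison checked were all of them above 0, and correlations of this size do not establish pairs. Treated tumors against TP2 controls within 60577 and HGS2 TP3 against TP2 controls were not checked. The members and lists were chosen with earlier results of these data known. Named genes are the 10 members, the genes of each list that passed, its 3 most abundant and the 5 genes most like Reg2, Dmbt1 and the acinar index. A gene that this rule names is not reported here. Genes named outside this rule were chosen after their values were seen.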

Additional observations from a re-analysis of the deposited data

Results flagged for a closer look

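In groups of 4 tumors, the highest tumor was checked for a gap to the next that is large for the range of the group (Dixon's criterion). Chance passes about 1 in 20 such checks, but the genes were chosen for their level in single tumors and move together, so that the 27 of 40 past the criterion restate that choice and are given as values. All 10 genes stood apart in HGS2 TP2 control 2, at 12503 CPM for Cpa1, 10008 for Cpb1, 26556 for Cela2a, 33080 for Ctrb1, 20218 for Pnlip, 10873 for Prss2, 1587 for Reg1, 1343 for Reg2, 270.3 for Reg3b and 12666 for Dmbt1. All 10 also stood apart in HGS2 TP3 treated 2, at 6928 CPM for Cpa1, 4315 for Cpb1, 14927 for Cela2a, 16726 for Ctrb1, 11333 for Pnlip, 4967 for Prss2, 980.4 for Reg1, 699 for Reg2, 197 for Reg3b and 8243 for Dmbt1. The next tumor of each group was at 138 and 22.2 CPM of Dmbt1.

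In 60577, TP2 treated 2 stood apart at low levels, with 0.947 CPM of Cpb1, 3.20 of Cela2a, 3.39 of Ctrb1, 3.35 of Pnlip and 0.0728 of Reg1 (2 counts). Reg3b was past the criterion on 1 count each in 60577 TP2 treated 4 (0.04005 CPM) and TP3 treated 3 (0.0323 CPM), beside zeros.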

How the results depend on the processing

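Another scaling and no filter on low counts kept every count of called members within 1.5 times its main value. In 60577 at TP1, calls went from 0 to 4 with the DESeq2 Wald test, and to 4 with the acinar index with or without TP2 controls 1 and 3. For treated 60577 tumors at TP3 against TP1, the 5 calls became 0 in limma-voom, 2 with the replicate block, 1 with the acinar index and 0 with the index and without those 2 controls, and ranged from 0 to 5 when single tumors were left out. For HGS2 against 60577 controls, the 9 calls became 0 in limma-voom, 0 in DESeq2, 3 with the acinar index and 0 without the 3 HGS2 tumors richest in acinar RNA, and ranged from 6 to 9 when single tumors were left out. For 60577 at TP2, where nothing is tested, the 9 members past the thresholds became 0 in limma-voom, 0 without TP2 controls 1 and 3 and 2 with the acinar index (Prss2 at -2.05 and Dmbt1 at -3.00, with Reg2 at -5.40). The replicate block changed no call in HGS2 at TP2.

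Signs of log2 fold changes turned as follows. With the replicate block, HGS2 at TP3 against TP1 gave -2.54 for Reg1, -1.70 for Reg2 and -3.36 for Dmbt1. With the acinar index, Reg2 was 0.019 in HGS2 at TP1, and Reg1, Reg2 and Dmbt1 were 1.17, 1.88 and 2.36 in HGS2 at TP2. With it, Reg1 and Dmbt1 were -0.68 and -2.17 in 60577 at TP3 against TP1, and Dmbt1 was -1.29 between controls of the models. With single HGS2 tumors left out, values at TP1 ranged from -9.09 to 3.09 for Reg1, -8.25 to 2.99 for Reg2 and -8.95 to 3.20 for Dmbt1, and turned without TP1 control 3. At TP2 they ranged from -12.6 to 0.76, -14.09 to 2.85 and -10.39 to 1.63, and turned without control 2. At TP3 against TP1 they ranged from -1.15 to 9.49, -1.61 to 10.01 and -1.65 to 9.07, and turned without TP3 treated 2. Without the 3 richest HGS2 tumors, Reg1 and Dmbt1 were 3.10 and 3.21 at TP1, 0.76 and 1.62 at TP2, and -1.14 and -1.67 at TP3 against TP1. Without 60577 TP2 controls 1 and 3, which leaves 1 control assumed to vary like the other groups and without a count of Reg1, so that values of Reg1 are set by the small count the fit adds, Reg1 was 2.45 at TP2, and Reg1 and Dmbt1 were 7.91 and 2.04 at TP3 against TP2 controls. With the index and without these 2, Reg1 and Dmbt1 were -0.55 and -2.24 at TP3 against TP1 and Dmbt1 was -0.82 between models. With the index and without the 3 HGS2 tumors, Reg1 and Dmbt1 were 1.58 and 2.49 in HGS2 at TP2 and Dmbt1 was -1.24 between models. The cause was not tested. The alternatives that leave out these tumors were chosen after seeing the data, and in them Reg2 was below the filter where it is not given. At the depth of these libraries, 3 counts are up to 0.174 CPM, which limits Reg2 and Reg3b most.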

Other observations

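Of 31 acinar genes, 4 were past an adjusted p of 0.05 between 13 HGS2 and 9 60577 tumors with at least 100 enzyme counts. Each gene was taken as counts per 100 counts of the 6 enzymes, and HGS2 TP3 treated 1 was included. A two-sided exact permutation test compared the mean log2 ratio, with 0.5 counts added. It was adjusted over the 31 genes and chosen after seeing the data. The 6 enzymes, chosen by their level in tumors of this test, set both the denominator and the tumors used. Try4, a trypsinogen, had a median of 6.67 in HGS2 and 0.216 in 60577 (adjusted p = 0.000873, exact permutation test), and shares reads with near-identical copies. Ctrc, chymotrypsin C, had 0.147 in HGS2 and 2.32 in 60577 (adjusted p = 0.00991, exact permutation test). Clps, the cofactor of pancreatic lipase, had 2.78 and 4.06, and Cela3b, an elastase, 5.24 and 6.46 (adjusted p = 0.0237 for both in the exact permutation test). Tumors of the models overlapped in each of the 4 genes, and tumor line and mouse strain cannot be told apart. The lowest HGS2 ratio was 0 for Ctrc, Clps and Cela3b, and the lowest 60577 ratio was 0 for Ctrc, so the added 0.5 counts enter these means. The test pools treatment and time groups, which the models hold in unlike numbers. Of the 9 60577 tumors, 4 were from TP3 and none was a TP1 control, while the HGS2 tumors came from every group. Model and group are therefore mixed in these values, and no difference between the models is read from the test.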
